A study of Rattus norvegicus with 6 samples.

Results

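The genes described here are 10 genes of the circadian clock and its direct output: the period genes Per1, Per2 and Per3, the repressors Ciart and Bhlhe41, the REV-ERB receptor genes Nr1d1 and Nr1d2, and the PAR bZIP genes Dbp, Tef and Hlf. They were taken by symbol from a table of 22250 genes. The 10 genes were selected on these same libraries, with their read counts in old-donor and young-donor hearts already known, so every difference between the donor groups given for them is a description, without a test.

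Donor hearts of Sprague-Dawley rats were stored cold in University of Wisconsin (UW) solution and transplanted into young rats. The young donors (WT, 10 weeks; hearts WT3, WT13 and WT15) and the aged donors (OT, 1 year; hearts OT3, OT4 and OT7) both carried the wild-type genotype, so donor age is the only labelled difference. The grafts were placed heterotopically, which leaves the left ventricle largely without its pumping load, and left ventricular (LV) myocardium was taken on postoperative day 1, frozen, and sequenced as polyadenylated RNA. No source used here gives the hour at which tissue was taken, or says whether the 3 hearts of a group were handled on separate days.

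The clock is a transcriptional loop. CLOCK (or NPAS2) and BMAL1, the product of Arntl, bind E-boxes and switch on the Per, Cry, Nr1d, Ciart, Bhlhe41 and Dbp genes, and the PER and CRY proteins then return to block CLOCK and BMAL1. CIART (also called CHRONO) and BHLHE41 (DEC2) repress the same E-boxes, while REV-ERBα and REV-ERBβ, made from Nr1d1 and Nr1d2, silence Arntl and other genes with ROR elements. DBP, TEF and HLF carry the rhythm to metabolic and ion channel genes through D-boxes, where NFIL3 (E4BP4) is their repressor. In the healthy rodent heart these transcripts swing widely over each day, so their level depends on the hour of sampling as well as on the state of the tissue.

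The motifs named in this background can be seen in the start regions of some of the 10 genes, which is why those stretches are shown. RefSeq start regions of build GRCr8 (250 bases before to 50 after the annotated start) matched 9 of the 10 genes, with 10 regions because Nr1d1 has a pair; Hlf had no match. Both strands were searched. Each line below is a 30-base window read 5′ to 3′ on the gene's strand, with the motif in capitals.
Ciart, E-box 93 bases before the start, chr2:186112322-186112351, minus strand: tgtatctagagtCACGTGttgccggcaaag
Ciart, E-box 35 bases before the start, chr2:186112264-186112293, minus strand: cgcagggggaggCACGTGcagagccgcacg
Ciart, E-box 21 bases before the start, chr2:186112250-186112279, minus strand: cgtgcagagccgCACGTGtctgggaggggg
Bhlhe41, E-box 48 bases before the start, chr4:180569386-180569415, minus strand: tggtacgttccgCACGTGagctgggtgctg
Tef, E-box 198 bases before the start, chr7:115206617-115206646, plus strand: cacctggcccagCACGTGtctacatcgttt
Nr1d1, E-box 191 bases before the start, chr10:84229628-84229657, minus strand: tgtcagctcccaCACGTGtctggggatcct
Per2, D-box 192 bases before the start, chr9:99497167-99497196, minus strand: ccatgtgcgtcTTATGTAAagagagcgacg

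The E-box CACGTG lay in the windows of 4 of the 9 matched genes and in 6.42% of all 33469 start regions in the table. Ciart held 3 copies, all within 93 bases of its start. The D-box TTATGTAA lay in the window of Per2 alone among the 9, and in 0.893% of all regions. Neither the other D-box form, TTACGTAA (0.12% of regions), nor the ROR element core TAGGTCA (2.63%), nor the cAMP response element TGACGTCA (1.83%) occurred in the 10 windows, which says only that these letters are not within the 300 bases searched.

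The libraries held 21457509 to 24560869 counted reads. The labels call every sample LV myocardium, but the RNA of the 6 hearts differed widely in its cell type markers. The summed level of 12 cardiomyocyte markers was 13057 to 91281 counts per 1000000 reads (CPM) in the WT hearts and 159.4 to 7509 CPM in the OT hearts, with no marker at 0, and the OT hearts lay below the WT hearts for 10 of the 12. OT3 had the least cardiomyocyte RNA. WT15, with the lowest sum of the WT hearts, stood apart from WT3 and WT13. Summed neutrophil markers ran from 6.11 to 135.3 CPM in WT and from 314.7 to 1328 CPM in OT (7 of 10 markers higher in all OT hearts), and summed macrophage markers from 334.8 to 2362 CPM and from 3748 to 7260 CPM (4 of 9). Summed fibroblast markers were lower in every OT heart (2020 to 4146 CPM, against 6253 to 7810 CPM), as were summed smooth muscle and pericyte markers (705.2 to 862.6 CPM, against 922.8 to 1548 CPM). Only 2 of the 6 fibroblast and 2 of the 8 smooth muscle and pericyte markers found were lower in all OT hearts, and 0 were higher in all. The others overlapped, among them Pdgfra (113.8 to 258.9 CPM in WT, 218.2 to 430.1 CPM in OT) and Acta2 (112.3 to 128.9 CPM in WT, 111.3 to 191.4 CPM in OT). OT4 had the highest summed level of 4 atrial markers, at 1517 CPM, against 5.65 to 394.1 CPM in the other 5 hearts. Nppa made up most of these sums, with 1367 CPM in OT4 and 390.3 CPM in WT15. For Myl7, WT3 had 49.7 CPM beside 69.1 CPM in OT4. In bulk tissue, fewer cells of a type and less RNA per cell cannot be told apart. Values below are given per heart in the order WT3, WT13, WT15 and then OT3, OT4, OT7, as CPM after TMM scaling (trimmed mean of M values, which scales each library to the bulk of its genes), with the mean ± SD over the 3 hearts of a group.

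In CPM after TMM scaling, 9 of the 10 genes were lower in every OT heart than in every WT heart, and Bhlhe41 was the exception. So were 20.6% of all 13784 genes tested. In FPKM the groups overlapped for Per2. The differences fell into 3 sizes. Dbp, Nr1d1, Per3 and Nr1d2 were at 0.158 to 0.275 of their WT mean CPM, and Hlf, counted from very few reads, at 0.125. Tef was at 0.347 and Ciart at 0.419. Per1 and Per2 were at 0.652 and 0.647, close to the fold limit of 0.67 that the study used, and Bhlhe41 was at 0.897.

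**Figure D1:**
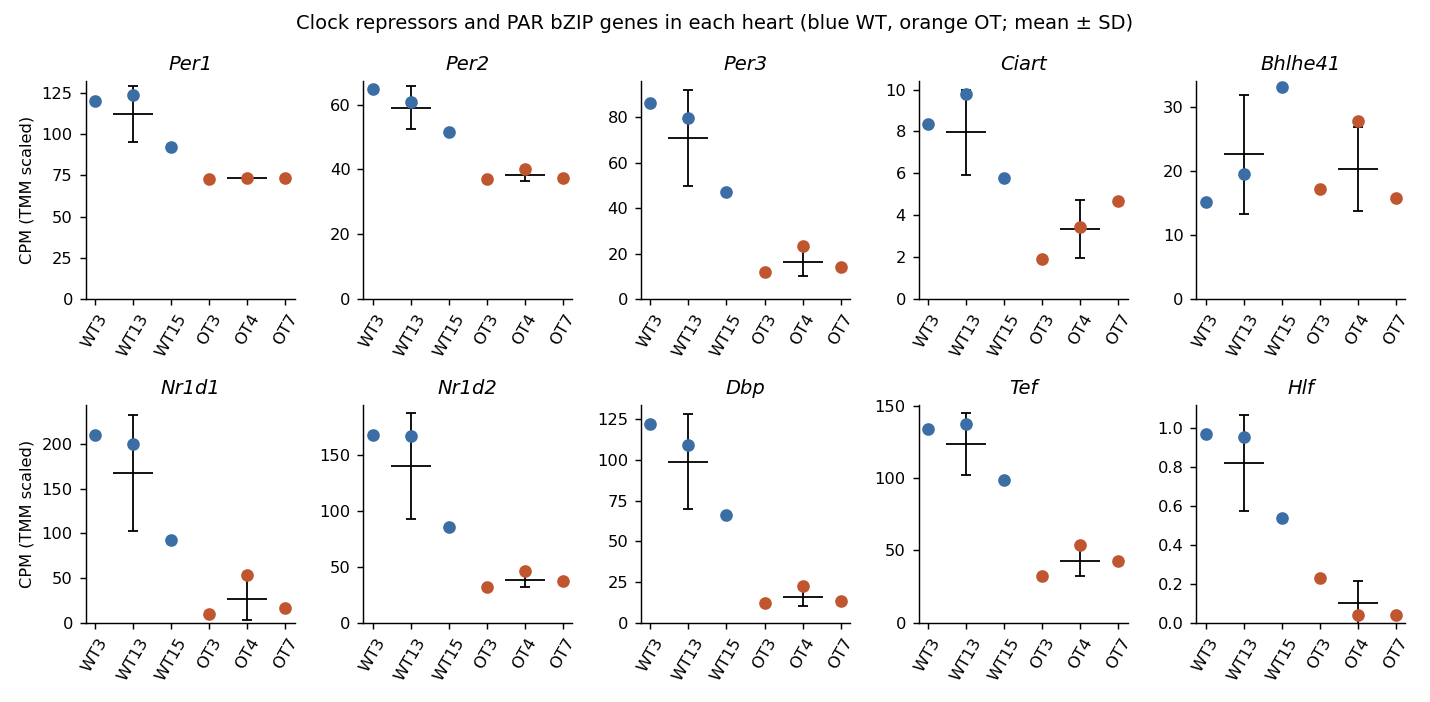
Level of each of the 10 genes in each heart, in CPM after TMM scaling (vertical axis from 0, one scale per gene). Blue points are WT hearts and orange points OT hearts, and the horizontal line and bar are the group mean ± SD (n = 3). In every panel but that of Bhlhe41 the orange points lie below all blue points, and WT15 is the lowest blue point.

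Per1 and Per2 encode the PER proteins that, with CRY, form the core repressor. Per1 (chromosome 10, 55687050 to 55695994) was at 120.2, 123.9 and 92.4 CPM in WT and at 72.9, 73.5 and 73.2 CPM in OT. After TMM scaling the 3 OT hearts were almost identical (73.2 ± 0.297 CPM, against 112.2 ± 17.2 in WT). The log2 fold change, OT over WT, was -0.62 (SE 0.18). Per2 (chromosome 9, 98555169 to 98597359) was at 64.7, 60.9 and 51.6 CPM in WT and at 36.9, 40.2 and 37.5 CPM in OT, with group means of 59.1 ± 6.71 and 38.2 ± 1.77. Its log2 fold change was -0.63 (SE 0.16). In CPM after TMM scaling the groups did not overlap for either gene.

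The differences of Per1 and Per2 rested on the library scaling. Their raw read counts were much alike: Per1 had 1987, 1948 and 2237 reads in WT and 2219, 1938 and 1910 in OT, and Per2 had 1069, 958 and 1250 against 1124, 1061 and 978. FPKM divides by the library total and the gene length. In FPKM, Per1 was at 23.4 ± 1.27 in WT and 21.3 ± 0.937 in OT, and Per2 at 8.68 ± 0.994 and 7.76 ± 0.218. The groups then overlapped for Per2, with WT13 at 7.72, below OT3 at 7.91 and OT4 at 7.86. With library totals alone in place of TMM, the log2 fold changes were -0.14 for Per1 and -0.16 for Per2. That scaling moves the median of all tested genes from 0.02 to 0.46, so relative to the bulk of genes both stayed lower.

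Per3, the third period gene, is thought to be dispensable for the core oscillation and is a strongly rhythmic output in many tissues. It had far larger differences than its paralogs. Per3 (chromosome 5, 168086998 to 168123395) was at 86.2, 79.5 and 47.0 CPM in WT and at 12.0, 23.5 and 13.9 CPM in OT, with group means of 70.9 ± 21.0 and 16.5 ± 6.20. The lowest WT heart, WT15, still lay above the highest OT heart, OT4, with 47.0 against 23.5 CPM. The log2 fold change was -2.11 (SE 0.36), and it was -1.61 with library totals alone. Within a heart, the FPKM of Per2 over that of Per3 was 0.839, 0.856 and 1.23 in WT and 3.44, 1.91 and 3.02 in OT, a ratio that no scaling of the library can change. The ratio was thus higher in all OT hearts, and Per1 over Per3 had the same order (2.23, 2.49 and 3.14 against 9.71, 4.98 and 8.43).

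Ciart, a repressor that binds BMAL1, was counted from 58 to 154 reads a heart. Ciart (chromosome 2, 197987705 to 197991574) was at 8.35, 9.79 and 5.78 CPM in WT and at 1.90, 3.45 and 4.67 CPM in OT, with group means of 7.97 ± 2.03 and 3.34 ± 1.39. The groups did not overlap, but WT15 and OT7 were only 1.11 CPM apart, and the log2 fold change was -1.25 (SE 0.41).

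Bhlhe41, which encodes the E-box repressor DEC2, did not share the pattern. Bhlhe41 (chromosome 4, 180232382 to 180234804) was at 15.2, 19.5 and 33.1 CPM in WT and at 17.2, 27.8 and 15.8 CPM in OT. The groups overlapped fully, with WT15 the highest heart of all and the other WT hearts beside the OT hearts. Its log2 fold change of -0.16 (SE 0.37) turned to 0.26 without WT15 and to 0.20 with library totals alone. Its paralog Bhlhe40 (DEC1), at 121.2, 123.9 and 86.2 CPM in WT and 73.2, 118.5 and 141.2 CPM in OT, overlapped as well.

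Nr1d1 and Nr1d2 encode the heme-binding nuclear receptors REV-ERBα and REV-ERBβ. Nr1d1 (chromosome 10, 86683875 to 86690815) stood at 209.9, 200.3 and 93.0 CPM in WT and at 9.79, 53.8 and 16.1 CPM in OT. The groups did not overlap, but the OT hearts spread more for this gene than for any other of the 10 apart from Hlf: OT4 had 53.8 CPM and OT3 9.79 CPM, around a mean of 26.5 ± 23.8, against 167.8 ± 64.9 in WT. The log2 fold change was -2.66 (SE 0.71), and it was -3.69 without OT4 and -2.26 without OT3.

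Nr1d2 (chromosome 15, 8730871 to 8757165) was at 167.6, 166.4 and 85.7 CPM in WT and at 32.0, 45.9 and 37.6 CPM in OT, with group means of 139.9 ± 46.9 and 38.5 ± 7.01. The log2 fold change was -1.86 (SE 0.32). The ratio of Nr1d1 to Nr1d2 FPKM in a heart was 2.26, 2.18 and 1.96 in WT and 0.553, 2.12 and 0.775 in OT, so OT4 kept a ratio like that of the WT hearts while OT3 and OT7 lay below it.

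Nr1d1 is the only one of the 10 whose coordinates overlap another gene. Its 3′ end shares 1059 bases with Thra, the thyroid hormone receptor α gene, on the opposite strand, and the sources used here do not state whether reads were counted by strand, so part of the reads could belong to either. Thra was at 123.8, 116.4 and 48.9 CPM in WT and at 26.9, 29.2 and 25.2 CPM in OT. Both genes were lowest in WT15 among the WT hearts and lower in every OT heart than in every WT heart. Among the OT hearts Nr1d1 varied 5.49-fold while Thra was nearly level. The part of the shared bases in these counts was not tested.

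Dbp, Tef and Hlf encode the PAR bZIP activators of D-box genes. Dbp is a direct target of CLOCK and BMAL1 with one of the widest daily swings known. Dbp (chromosome 1, 101687855 to 101692846) was at 121.8, 108.9 and 66.3 CPM in WT and at 12.0, 22.6 and 13.3 CPM in OT, with group means of 99.0 ± 29.0 and 15.9 ± 5.79. The log2 fold change was -2.63 (SE 0.36), and the lowest WT heart had 2.94 times the level of the highest OT heart, the widest such ratio among the 10.

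Tef (chromosome 7, 123043503 to 123058604) was at 134.0, 137.5 and 98.5 CPM in WT and at 32.4, 53.6 and 42.5 CPM in OT. The groups did not overlap, the group means were 123.3 ± 21.6 and 42.8 ± 10.6, and the log2 fold change was -1.53 (SE 0.26). Dbp differed more than Tef: Dbp over Tef, in FPKM within a heart, was 2.22, 1.94 and 1.65 in WT and 0.904, 1.03 and 0.765 in OT, with every OT heart below every WT heart.

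Hlf was near the lower end of what these libraries can count. Hlf (chromosome 10, 77840568 to 77918191) had 16, 15 and 13 reads in WT and 7, 1 and 1 in OT, and it passed the low-count filter only through the WT hearts. Its gene model in the table is 888 bases long. The summed 9 reads of OT against 44 of WT, each as a share of the summed scaled libraries, gave a ratio of 0.139. The fitted log2 fold change of -2.88 (SE 0.75) moved to -4.22 without OT3, which held 7 of the 9 reads.

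By FPKM, which divides by the deposited gene length, the order of the 10 differed between the groups. Those lengths were a multiple of 3 for 51.8% of all genes, Hlf (888 bases) and Bhlhe41 (1194 bases) among them. Whether each gene model covers the whole transcript was not checked, so the place of a gene within a group also depends on its model. In WT, Nr1d1 (53.6 ± 12.4) and Dbp (48.1 ± 6.47) led and overlapped each other, both apart from a middle set of Tef (24.9 ± 0.761), Nr1d2 (24.9 ± 4.13) and Per1 (23.4 ± 1.27), which could not be ordered. Bhlhe41 (17.3 ± 11.2), Per3 (9.06 ± 1.19) and Per2 (8.68 ± 0.994) followed, each overlapping the next, then Ciart (3.82 ± 0.275) and Hlf (0.761 ± 0.0940), each apart from the gene above. Bhlhe41, at 9.80 to 30.1 over the WT hearts, also overlapped the middle set. In OT, Per1 (21.3 ± 0.937) and Bhlhe41 (19.8 ± 5.74) had the highest means and overlapped. The order by mean did not hold in each heart: Nr1d1 was at 23.8 in OT4, above Per1 in every OT heart (20.5 to 22.3). Tef (12.0 ± 2.46), Nr1d1 (12.0 ± 10.4), Dbp (10.9 ± 3.54) and Nr1d2 (9.77 ± 1.36) came next, each overlapping its neighbour, and then Per2 (7.76 ± 0.218), Per3 (2.97 ± 1.00), Ciart (2.24 ± 0.881) and Hlf (0.140 ± 0.157).

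In CPM after TMM scaling, the hearts kept a similar rank from gene to gene. WT15 was then the lowest WT heart for 9 of the 10 genes, Bhlhe41 being the exception. OT3 was the lowest OT heart for 8 and OT4 the highest for 8, although Per1 was almost level in OT. These ranks, and the positions below, depend on the scaling. In FPKM, WT15 was the highest WT heart for Per1 (24.8), Per2 (9.70) and Tef (25.7). OT3 was the highest OT heart in FPKM for Per1 (22.3) and Per2 (7.91). On a log2 CPM scale set to 0% at the OT mean and 100% at the mean of WT3 and WT13, WT15 lay at 45.6% for Per1, at 54.9% for Nr1d2 and 57.5% for Ciart, and between 60.7% and 72.7% for Per2, Nr1d1, Per3, Hlf, Dbp and Tef. Over the 2621 genes past the study's limits and lower in OT, the median position was 36.5% (quartiles 22.3% and 56.6%), and over the 2846 genes that were lower in all OT hearts than in all WT hearts it was 47.3% (quartiles 31.5% and 69.8%). On the same scale the mean log2 CPM of the cardiomyocyte markers put WT15 at 53.7%. The OT mean of that score was pulled down by OT3, at 3.20 against 8.72 in OT4 and 8.48 in OT7, with WT15 at 9.51. The 53.7% thus depends on OT3 and is not set against the positions of the 9 genes. These positions were not tested.

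**Figure D2:**
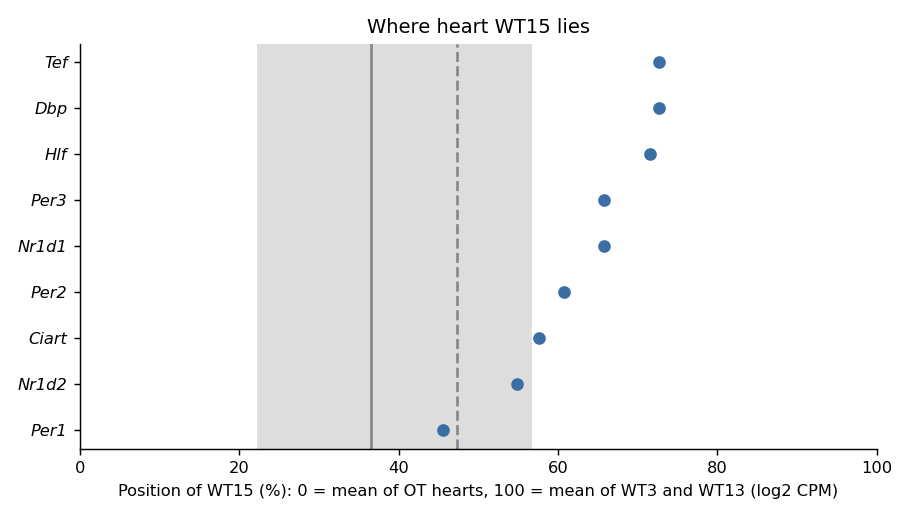
Position of heart WT15 for the 9 genes lower in OT, in percent of the distance from the mean of the OT hearts (0) to the mean of WT3 and WT13 (100), on log2 CPM. The solid line and grey band are the median and quartiles of the 2621 genes past the study's limits and lower in OT (36.5, 22.3 and 56.6), and the dashed line is the median of the 2846 genes lower in all OT than in all WT hearts (47.3). Tef and Dbp sit highest and Per1 lowest.

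The study's limits, used here as written, are a fold change over 1.5 or under 0.67 together with p below 0.05 before adjustment. By edgeR's quasi-likelihood test on 13784 genes, 32.2% of all genes were past these limits, 19.0% as lower in OT and 13.2% as higher. These were 2621 and 1815 genes, against 1441 lower and 3147 higher with library totals alone, where Per1, Per2 and Ciart were not past the limits. The 9 genes lower in OT were all past them, but this reuses the contrast on which the genes were selected, and nothing is read from that count. Of all tested genes, 21.0% were higher in every OT heart than in every WT heart. The median log2 fold change of the 10 genes was -1.69, and that of all tested genes 0.02. Without WT3, Per1, Per2 and Ciart were no longer past the limits; without WT13, Per1 and Ciart were not, and without OT4, Ciart was not. Without the libraries that stood apart, WT15 and OT3, the log2 fold changes of the 9 genes ran from -0.65 (Per2) to -4.42 (Hlf), with Dbp at -2.65, Nr1d1 at -2.52, Per3 at -2.11, Nr1d2 at -1.96, Tef at -1.46 and Ciart at -1.11.

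Since cardiomyocyte marker RNA moved with the donor groups, each of the 10 was also fitted with the mean log2 CPM of the cardiomyocyte list as a second term. The log2 fold change then came to -2.01 (SE 0.43) for Dbp, -1.44 (SE 0.42) for Per3, -1.32 (SE 0.41) for Nr1d2 and -1.02 (SE 0.27) for Tef. It was -1.24 (SE 0.66) for Nr1d1, -0.49 (SE 0.28) for Per1, -0.50 (SE 0.24) for Per2 and -0.40 (SE 0.40) for Ciart. Hlf, at -4.37 (SE 1.26), rests on its few reads. These values come from the contrast on which the genes were selected and are a description. Over all genes, the number past the study's limits went from 4436 to 809. The summed cardiomyocyte markers did not overlap between the donor groups, so donor age and cardiomyocyte RNA cannot be told apart in these 6 hearts.

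**Figure D3:**
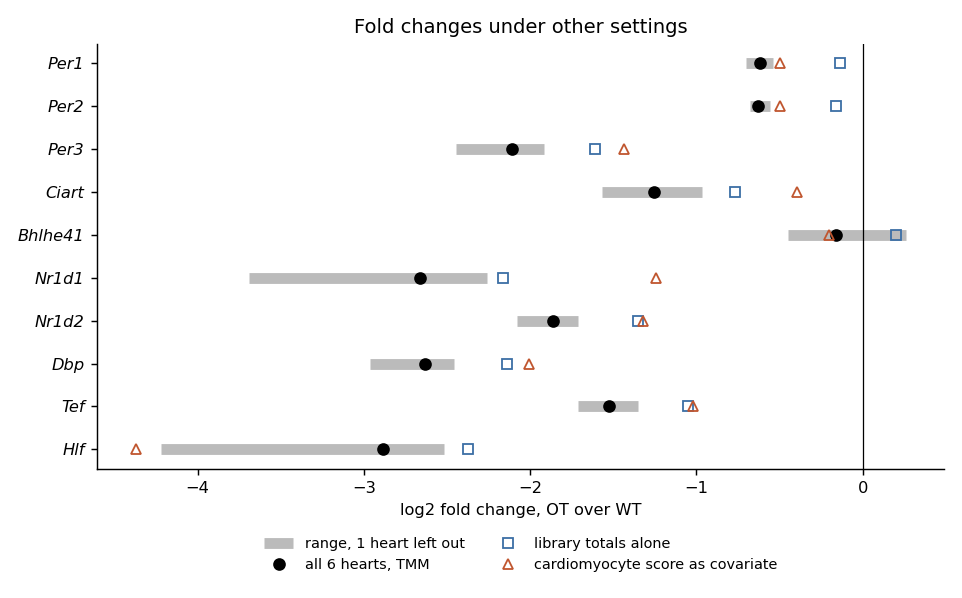
Log2 fold change (OT over WT) of the 10 genes with all 6 hearts and TMM scaling (black points), over the range with 1 heart left out (grey bars), with library totals alone (blue squares) and with the cardiomyocyte score as a covariate (orange triangles). Bhlhe41 crosses 0, and Per1 and Per2 come close to 0 with library totals alone.

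The rest of the clock did not share one direction. Of 18 other clock genes listed by function, 16 were tested, and by edgeR Cry2, Npas2 and Btrc were lower past the study's limits, Nfil3 was higher, and 12 were not past them, beside 32.2% of all genes. Their median log2 fold change was 0.05. None of them had a Benjamini-Hochberg adjusted p under 0.05 in edgeR, as was so for every tested gene, and the lowest was 0.0916. With library totals alone, none of the 16 was lower past the limits and Cry1 and Nfil3 were higher. With the cardiomyocyte covariate all 4 named genes lost their call, and Bhlhe40 alone was past the limits, as higher.

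Among the activators, Arntl and Clock were not past the limits. Arntl, the target that REV-ERB represses, was at 37.0, 35.1 and 15.6 CPM in WT and at 31.5, 26.5 and 31.2 CPM in OT, with WT15 the lowest heart (log2 fold change 0.03, SE 0.34). Clock was at 101.3, 99.8 and 111.6 CPM in WT and at 91.0, 100.7 and 122.5 CPM in OT (0.01, SE 0.19). Npas2, the CLOCK paralog, fell by 1.42 on the log2 scale (SE 0.49, edgeR with Benjamini-Hochberg adjusted p = 0.109), but WT15, at 7.85 CPM, lay within the OT hearts, at 6.44 to 8.51 CPM, while WT13 had 23.2 CPM and WT3 more. Npas2 was not past the limits without WT3, WT13, OT3, OT4 or OT7, each left out alone.

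The cryptochromes, partners of the PER proteins, differed from one another. Cry2 fell by 0.77 on the log2 scale (SE 0.22, edgeR with Benjamini-Hochberg adjusted p = 0.0924), from 64.4, 78.5 and 50.2 CPM in WT to 33.3, 38.2 and 42.0 CPM in OT. It stayed past the limits with any 1 heart left out, though neither with library totals alone nor with the covariate. Cry1 was at 8.47 to 18.5 CPM in WT and overlapped in OT, where OT3 had 15.4 and OT7 18.5 CPM (log2 fold change 0.19, SE 0.33). Btrc, which encodes a ubiquitin ligase subunit that marks PER proteins for breakdown, fell by 0.66 (SE 0.24, edgeR with Benjamini-Hochberg adjusted p = 0.122), and was not past the limits without WT13, WT15, OT3 or OT7.

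Nfil3, the repressor that competes with the PAR bZIP proteins for D-boxes, rose. It was at 13.1, 12.3 and 15.9 CPM in WT and at 28.5, 20.7 and 32.1 CPM in OT, with a log2 fold change of 0.98 (SE 0.24, edgeR with Benjamini-Hochberg adjusted p = 0.0916), and it stayed past the limits with any 1 heart left out and with library totals alone, but not with the cardiomyocyte covariate. NFIL3 is also induced in immune cells, and the neutrophil and macrophage markers given above were higher in the same hearts; the part of those markers in the result was not tested.

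**Figure D4:**
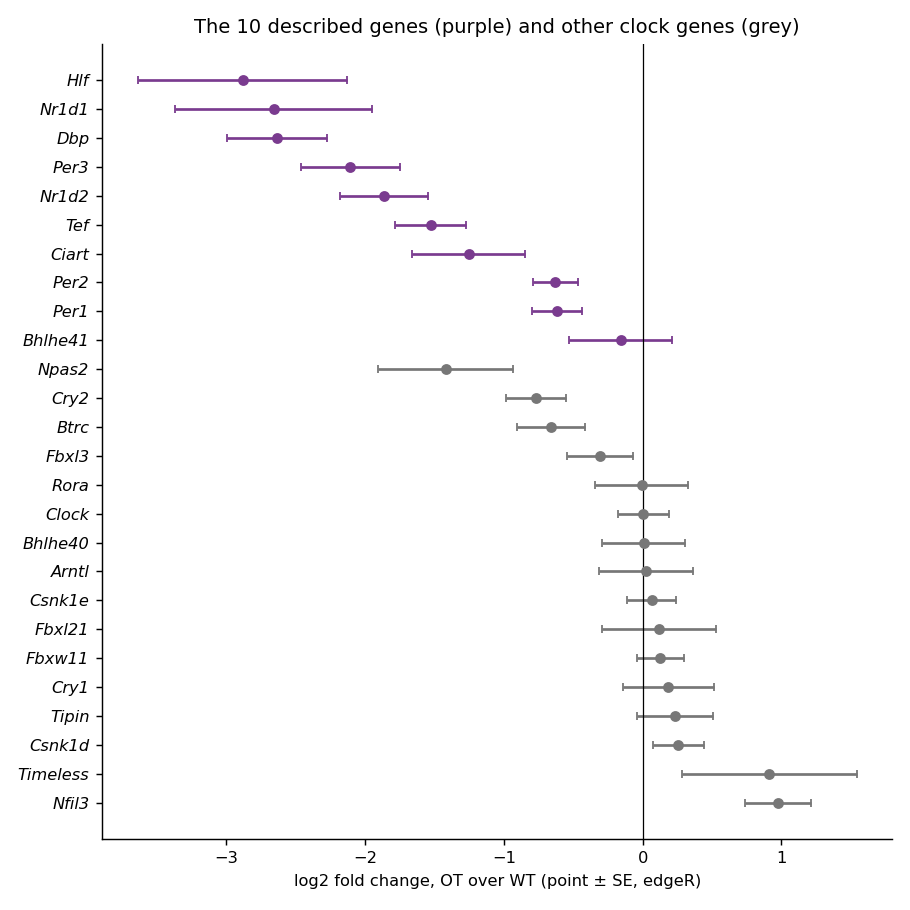
Log2 fold change, OT over WT, with its standard error (edgeR, 6 hearts) for the 10 genes (purple) and the 16 other clock genes tested (grey). All 10 purple points lie left of 0, from Hlf (-2.88) to Bhlhe41 (-0.16), while the grey points lie on both sides, from Npas2 (-1.42) to Nfil3 (0.98). With library totals alone Bhlhe41 lies right of 0, at 0.20.

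Ratios within a heart set repressors and targets side by side without any library scaling. They reuse the levels on which the 10 genes were selected, and are a description. Arntl over Nr1d1, in FPKM, was 0.151, 0.150 and 0.144 in WT and 2.76, 0.422 and 1.66 in OT. The WT hearts were close to one another (0.148 ± 0.00409), WT15 included, although WT15 had 93.0 CPM of Nr1d1 and 15.6 CPM of Arntl while the other WT hearts had at least 200.3 and 35.1 CPM. OT4, which stood out for its atrial markers, was the OT heart nearest to them.

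For the D-box activators and their repressor, OT4 was again the OT heart nearest to WT. Nfil3 over Dbp was 0.0936, 0.0979 and 0.209 in WT and 2.07, 0.797 and 2.10 in OT, so that Nfil3 had the lower FPKM of the pair in every WT heart and the higher in OT3 and OT7. Nfil3 over Tef was 0.208, 0.190 and 0.344 in WT and 1.87, 0.822 and 1.61 in OT. Cry1 over Per3 was 0.370, 0.515 and 0.399 in WT and 2.85, 1.22 and 2.96 in OT. The groups did not overlap in these ratios, but they did in Bhlhe40 over Bhlhe41 (1.31 to 4.01 in WT and 2.14 to 4.48 in OT) and in Npas2 over Clock (0.155 to 0.653 and 0.141 to 0.206).

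**Figure D5:**
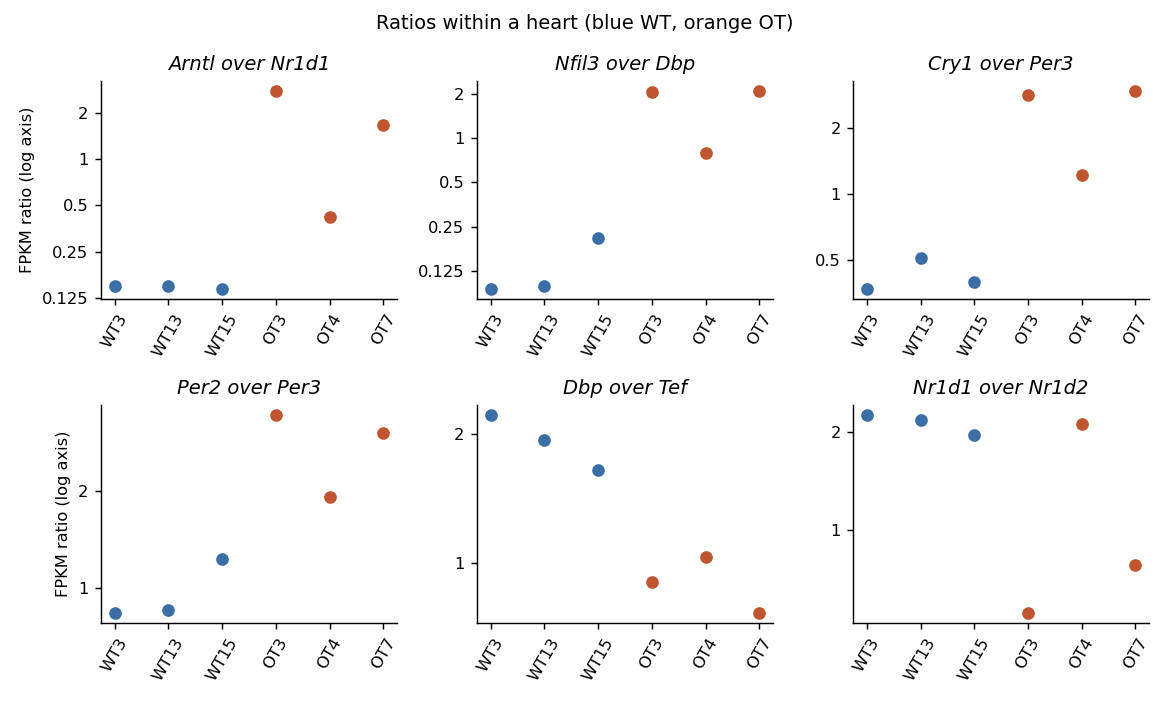
Ratio of the FPKM of a pair of genes within each heart (vertical axis on a log scale), for 6 pairs, with WT hearts in blue and OT hearts in orange. The groups are apart in every pair but Nr1d1 over Nr1d2, where OT4 (2.12) lies among the WT hearts.

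Genes known as targets of the clock or of the PAR bZIP factors were listed by function. Of 15, 13 were tested (Kcnip2 was too low, and Tcap was not analysed here), and by edgeR 4 were lower past the limits and 2 higher, beside 19.0% and 13.2% of all genes. Usp2, a ubiquitin protease driven by the clock in many tissues, fell from 92.7, 114.6 and 41.0 CPM in WT to 1.90, 18.4 and 15.5 CPM in OT (log2 fold change -2.80, SE 0.84). Klf15, a regulator of cardiac lipid and amino acid metabolism, Kcnh2, a repolarizing potassium channel gene, and Ppara, a known PAR bZIP target, fell as well, with log2 fold changes of -4.15, -3.92 and -2.85. Cardiomyocytes also use these 3 genes, and the cardiomyocyte markers given above were lower in the same hearts. The part of those markers in the result was not tested. With the cardiomyocyte covariate Usp2 and Kcnh2 stayed past the limits, and Klf15 and Ppara did not. Nothing is read from that split, since donor age and cardiomyocyte RNA cannot be told apart in these hearts. Noct, the rhythmic gene of nocturnin, rose by 1.15 and Por, which encodes cytochrome P450 reductase, by 0.70. Neither stayed past the limits with the covariate, and Por, whose groups overlapped, was not past them without WT3, WT13, OT3 or OT4, each left out alone. Wee1, an E-box target, was at 24.2 to 42.7 CPM in WT and 23.2 to 34.4 CPM in OT and was not past the limits.

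Glucocorticoids induce Per1 through its promoter, so genes induced by glucocorticoids were listed as well. All 11 were tested, and by edgeR 4 were lower past the limits (Tsc22d3, Zbtb16, Klf9 and Ddit4, with log2 fold changes of -1.07, -2.25, -1.80 and -0.998) and 5 higher (Fkbp5, Sgk1, Errfi1, Cebpd and Nfkbia, with 0.80, 1.17, 1.39, 1.62 and 1.20). The shares over all genes were 19.0% and 13.2%. Dusp1 (0.03, SE 0.43) and Mt2A (3.07, SE 1.54) were not past the limits. Mt2A was nevertheless higher in every OT heart, at 112.6 to 232.3 CPM, against 1.63, 0.83 and 61.9 CPM in WT. It was past the limits as higher by DESeq2, by limma-voom and without WT15. Tsc22d3 lost its call without WT3, WT13, OT4 or OT7, each left out alone, and with library totals alone both Tsc22d3 and Ddit4 lost theirs. With the cardiomyocyte covariate Ddit4 was lower past the limits and Cebpd, Errfi1 and Fkbp5 higher, while the other 5 were not past them. The list thus held genes of both directions at once, beside a log2 fold change of -0.62 for Per1.

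For each of the 10 genes, the gene outside the set with the most similar profile over the 6 hearts was found by the root-mean-square difference of log2 CPM, each centred on its own mean. The nearest were Adcy9 for Per1 (0.0490), Ick for Per2 (0.0558), Thnsl2 for Per3 (0.173), Slc29a1 for Dbp (0.187), Timp3 for Tef (0.102), Cxcl9 for Hlf (0.193), Asb15 for Nr1d1 (0.175), Prrt2 for Nr1d2 (0.0941), Herc3 for Ciart (0.0663) and RGD1560010 for Bhlhe41 (0.0966). None is a clock gene listed here. Within the 10, Per1 and Per2 were each other's nearest (0.0656), and Per3 and Nr1d2 likewise (0.223). Genes outside the set were closer still. Among the 12957 genes ranked, the nearest of the 10 had rank 9 for Per1, 3 for Per2, 15 for Per3 and 68 for Nr1d2.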

How the data were processed

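RNA-Seq was done on 6 transplanted rat hearts. The authors deposited one table with raw read counts per gene and heart, not normalized, and with FPKM values (reads per kilobase of gene and 1000000 counted reads); FPKM recomputed from the deposited counts and gene lengths differed by more than 0.1% for 1 of 133500 values. The submitters' processing notes name HISAT2 2.0.5, StringTie 1.3.3b, featureCounts 1.5.0-p3, DESeq2 1.16.1, GATK 3.7 and the build Rnor_6.0, without roles. Gene coordinates are those of the table, and motif coordinates are GRCr8.

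The fit across genes used edgeR 4.0.16 in R 4.3.3 (filterByExpr, TMM, glmQLFit and glmQLFTest, no covariates) on all 6 hearts, after a test on simulated data. The standard error is the log2 fold change over the square root of F, log2 CPM used a prior count of 2, and adjusted p-values follow Benjamini and Hochberg over 13784 genes. Alternatives were other scalings, filters, DESeq2 1.42.0, limma-voom (limma 3.58.1), a cardiomyocyte covariate and leaving out hearts. Python 3.11.15 was used for the rest.

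The 10 genes, the other lists, the tests and the motifs were chosen with earlier results of these data known. Named genes were the 10, the listed genes past the limits or needed to complete a role, the nearest profile of each, and overlapping genes. Nothing in the labels says which hearts shared a day or cage. The p-values treat the hearts of a group as independent, which could not be checked.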

Additional observations from a re-analysis of the deposited data

How the results depend on the processing

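The 10 genes were refitted under 14 alternatives (13 for Hlf, which has no value where at least 1 CPM in 3 hearts was required). Of 139 such fold changes, 117 stayed within the spread between replicates, 18 moved and 4 turned sign. All 4 were of Bhlhe41, with 0.20 for library totals alone, 0.16 for limma-voom, 0.26 without WT15 and 0.37 without both WT15 and OT3, an alternative added after the data were seen, and with 1 heart left out its range was -0.45 (without OT4) to 0.26. The median log2 fold change of the 10 was -1.20 with library totals alone and -1.13 with the cardiomyocyte covariate. The number of genes past the limits was 4436, against 7504 by limma-voom, 809 with the covariate, 7396 without WT15 and OT3, and 2432 (without WT3) to 7214 (without WT15) with 1 heart left out, 2495 without WT13. At an adjusted p under 0.05, edgeR called 0 genes, against 4731 at an unadjusted p under 0.05, DESeq2 3592 and limma-voom 8416. Of the other clock genes, 4 were past the limits, 2 with library totals alone, 1 with the covariate (Bhlhe40, not one of the 4), and 2 to 4 with 1 heart left out. Of the clock output genes, 6 were, 3 with the covariate (Kcnh2 and Usp2 of the 6, and Pdk4) and 10 without WT15 and OT3, and of the glucocorticoid-induced genes 9 were, 4 with the covariate. The cause was not tested. No paired analysis was run because nothing in the labels pairs a young donor with an aged donor. Reads limit Hlf, with 9 reads in all OT hearts together, and Ciart, with 58 to 154 reads a heart.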
